A study of Drosophila melanogaster with 12 samples.

Results

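The genes described here belong to 10 Drosophila melanogaster families, most of which encode proteins that build, bind or remodel the chitinous cuticle. They were chosen by symbol, as every gene whose platform symbol begins with Cpr, Twdl, obst-, Cht, Cda, Lcp, Pcp, Ccp, Muc or Edg and has a probe set of its own. The choice found 138 genes of the 11981 with such a probe set, and each was followed through its brightest probe set. RNA abundance was measured on Affymetrix expression arrays in cells sorted by DNA content, to compare the cell cycle programme of a developing epithelium with that of a cultured line. The wing disc G2 and wing disc G1 groups came from OreR larvae of instar 3 at the wandering stage, raised at 25 °C. The S2 G2 and S2 G1 groups came from S2 cells, a line of embryonic origin with haemocyte features, kept for fewer than 30 passages. The G2 gate sat at the 4C peak, so it also holds cells in mitosis, and the G1 gate sat at the 2C peak. Each of the 4 groups had 3 arrays, numbered 2, 3 and 4 for the disc and 4, 5 and 6 for S2, and the labels do not say whether these came from separate dissections or cultures. The p-values therefore measure the spread between these samples, which may be technical.

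Insect cuticle is made of chitin fibres embedded in protein and is secreted at the apical face of epidermal cells. Cpr proteins carry the Rebers and Riddiford domain, which binds chitin, and Tweedle (Twdl), Lcp and Ccp proteins are further structural components. Obstructor (obst) proteins bind chitin and organise the matrix, Cht chitinases cut chitin, Cda enzymes deacetylate it, and Muc genes encode mucins. The wing disc is the epithelial sac that forms the adult wing and notum after metamorphosis. In the wandering larva it has not yet made adult cuticle.

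Values are log2 of the deposited intensity, and a level of 5 on at least 3 of the 12 arrays was the condition for a test. Levels of different probe sets are not comparable with each other, so each gene was tested only against itself. Sums of intensity, given for marker lists, are weighted to their brightest probe sets and were set only against the same sum in another group. The 12 array medians lay between 4.18 and 4.37, and each array had 40.4% to 42.0% of its probe sets at 5 or above. All 15 wing disc marker genes tested had a mean of at least 5 in the disc, and 6 of them (ap, tsh, ptc, rn, dpp and mirr) also did in S2 cells. Of 14 haemocyte and S2 markers, 12 had a mean of at least 5 in S2 G2 and 11 in S2 G1, but NimC1 and gcm were under 5 in both. In the disc 11 of the 14 reached it in wing disc G2 and 10 in wing disc G1, so this level does not separate the cell types. Ppn was brighter in the disc, at 10.74 in wing disc G2 and 5.47 in S2 G2.

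Most of the cuticle and chitin genes lay at the bottom of the intensity range. Of the 138, 95 were under 5 on all 12 arrays, 41 passed the filter, and the 97 that did not pass had means over all arrays between 2.52 and 4.70. The group mean reached 5 in at least 1 disc fraction but in neither S2 fraction for 22 genes (15.9%), against 5.42% of all 11981 genes. It reached 5 in both cell types for 17 (12.3%, against 48.6% of all genes), in S2 alone for 3 (2.17%, against 4.14%) and in neither for 96 (69.6%, against 41.8%). The 3 genes that reached it in S2 alone were Cpr50Cb, Cpr67Fa1 and TwdlP. Some genes lay so close to 5 that their class does not stand for a difference. TwdlP averaged 5.04 ± 0.05 in S2 G2 and just under 5 in wing disc G2 (5.00 ± 0.12 when rounded, SD). Among the 22, Muc26B and TwdlC reached 5 only in wing disc G1, at 5.01 and 5.06.

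The families differed in how many members rose above the floor of the arrays. Of the 66 Cpr genes, 20 passed the filter, and 7 of 24 Tweedle genes, 6 of 10 chitinase genes, 3 of 8 obstructor genes and 2 of 3 Ccp genes did so. The Cda, Lcp and Muc families gave 1 gene each, namely Cda4 of 3, Lcp65Aa of 7 and Muc26B of 13. None of the 3 Edg genes, which are named for their ecdysone-dependent expression, passed, nor did Pcp, a pupal cuticle protein gene. Their means in the 4 groups stayed between 2.69 (Edg78E in S2 G2) and 4.86 (Edg91 in wing disc G2).

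Of the 41, 19 passed through disc arrays alone, 1 (Cpr50Cb) through S2 arrays alone and 21 through arrays of both cell types. Just inside the filter, the third highest array of Cpr66Cb, TwdlC and TwdlP was 5.03, 5.06 and 5.07. Just outside it were Cpr67Fa1 at 4.89, Cpr47Eg at 4.85 and TwdlY at 4.81.

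**Figure D1:**
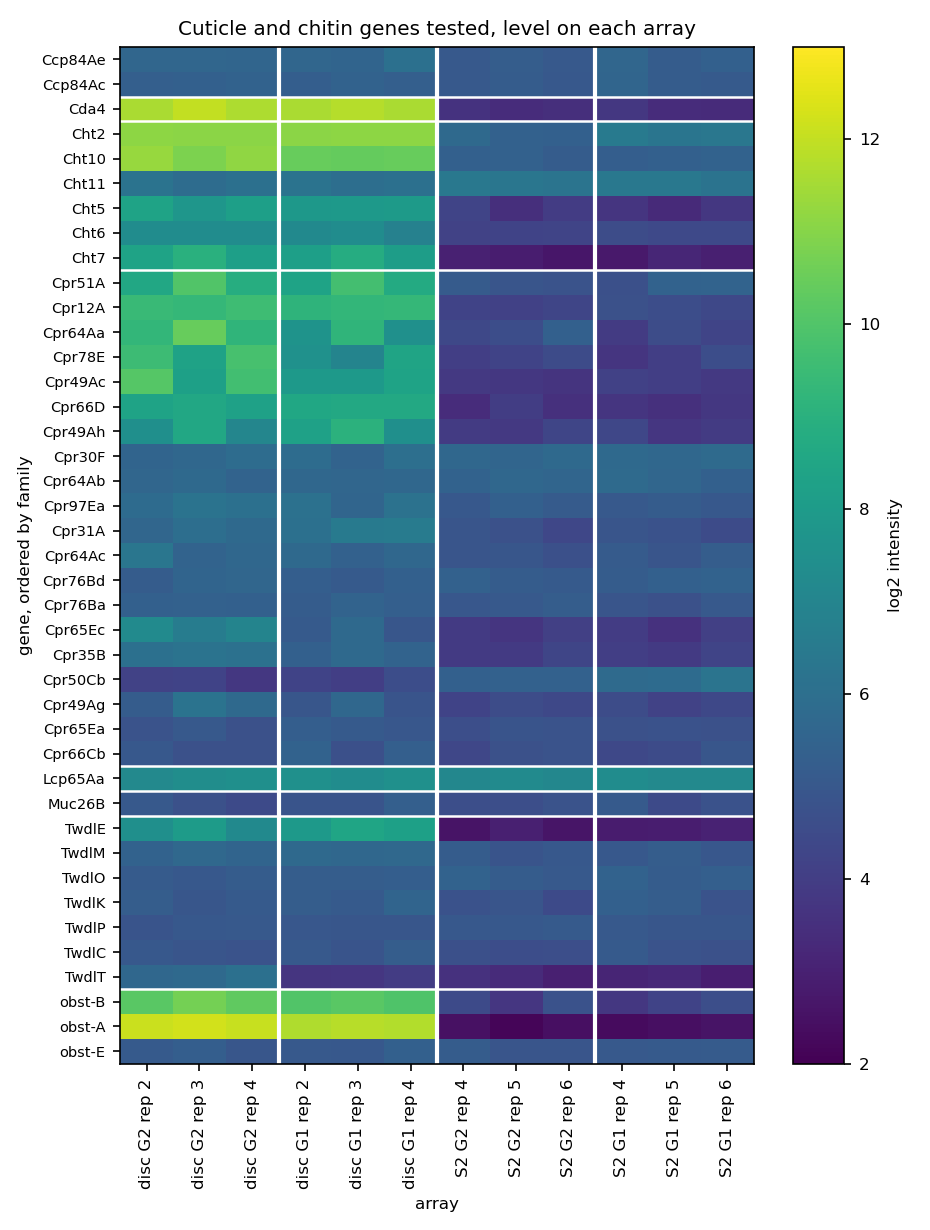
Level of the 41 cuticle and chitin genes that passed the filter (rows, ordered by family) on each of the 12 arrays (columns), as log2 intensity on the colour scale. The disc columns are bright for obst-A, obst-B, Cda4, Cht2 and Cht10, the S2 columns are dark for most of these genes, and Lcp65Aa has nearly the same colour throughout.

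Cuticle genes of this kind often stand next to each other in the genome, and the gene order of the RefSeq annotation (assembly Release 6 plus ISO1 MT) placed 73 of the 138 in 15 clusters of at least 3 members with no more than 2 other genes between neighbours. In most clusters no member passed the filter, and the others were mixed in which members passed. In the Cpr49A cluster of 7 genes on 2R, Cpr49Ac and Cpr49Ag had a disc mean of at least 5, and the other 5 members did not pass the filter. Of the 4 Cpr64A genes on 3L, Cpr64Aa, Cpr64Ab and Cpr64Ac reached 5 in the disc. Of the 3 Cpr65E genes, Cpr65Ea and Cpr65Ec did. Of 12 neighbouring Tweedle genes on 3R, 4 passed. The clusters in which no gene passed included the 7 Cpr47E genes and 8 neighbouring Lcp65A and Cpr65A genes.

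The disc fractions were compared first. Among the 41 genes tested, 7 were higher in wing disc G2 than in wing disc G1 (17.1%, against 5.42% of all 6937 genes tested), and 2 were lower (4.88%, against 5.64%), at an adjusted p under 0.05 from limma. The higher genes were TwdlT, Cpr65Ec, Cpr78E, Cpr49Ac, Cht10, Cpr35B and obst-A, and the lower genes were TwdlE and Cpr31A. The median change of the 41 was 0.03 on the log2 scale, and that of all genes was 0.06. Subtracting array medians gave 8 higher and 1 lower, counts that are given without a share of all genes. With no filter, 7 of all 138 members were higher (5.07%, against 2.42% of 11981 genes) and 0 were lower (against 3.08%), with 20 members at an unadjusted p under 0.05. Those 7 held TwdlT, Cpr65Ec, Cpr78E, Cpr49Ac, Cht10, Cpr35B and, in place of obst-A, Twdlbeta (0.46, limma adjusted p = 0.0323), which was under 5 on average in both fractions. Because these are bulk RNA samples, fewer cells of a type and less RNA per cell cannot be told apart.

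TwdlT (CG5812), a Tweedle cuticle protein gene, had log2 levels of 5.69, 5.74 and 6.07 in wing disc G2, against 3.71, 3.72 and 3.96 in wing disc G1. All G2 arrays lay above all G1 arrays. TwdlT passed the filter only through these G2 arrays, so its place among the 7 is no support for a higher level in G2. In the fit with no filter, where it was not chosen that way, its limma adjusted p was 1.6e-06 (n = 3 each). Since all G1 arrays were under 5, the G2 mean can be set only against that level, and it was at least 1.78-fold above it.

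Cpr65Ec (CG8634), a chitin-binding cuticle protein gene of the Cpr65E cluster, had 7.27, 6.61 and 6.98 in wing disc G2, against 5.11, 5.77 and 4.96 in wing disc G1. The groups did not overlap, and replicate 3 had the smallest gap between its fractions. The change was 1.67 ± 0.23 (SE, n = 3 each, limma adjusted p = 0.00055).

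Cpr78E (CG7160) had 9.54, 8.32 and 9.81 in wing disc G2, against 7.58, 6.98 and 8.44 in wing disc G1 (replicates 2, 3 and 4). The groups overlapped, because G2 of replicate 3 lay below G1 of replicate 4, but G2 was above G1 within each replicate number. The change was 1.56 ± 0.41 (SE, limma adjusted p = 0.0343). This call was lost without disc G1 replicate 2 or 3, disc G2 replicate 2 or 4, or S2 G2 replicate 5 (adjusted p 0.0507 to 0.127), and with only the disc arrays fitted (0.0903).

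Cpr49Ac (CG8502) had 10.10, 8.26 and 9.67 in wing disc G2, against 7.90, 7.95 and 8.38 in wing disc G1. Replicate 3 was the low G2 array, and it overlapped the G1 arrays. The change was 1.26 ± 0.35 (SE, limma adjusted p = 0.0406). It did not pass without any 1 disc array other than G2 replicate 3 (adjusted p 0.0602 to 0.139), nor without S2 G1 replicate 4 or 5 or any S2 G2 array (0.0525 to 0.0593), nor with cyclic loess (0.0502) or only the disc arrays fitted (0.124).

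Cpr35B (CG3474) had 6.06, 6.21 and 6.10 in wing disc G2, against 5.39, 5.75 and 5.52 in wing disc G1. The groups did not overlap, and the change was 0.57 ± 0.14 (SE, limma adjusted p = 0.0266). The call was lost without any 1 disc array other than G1 replicate 3 (adjusted p 0.0555 to 0.0993).

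The chitinase gene Cht10 (CG18140) had 11.31, 10.83 and 11.16 in wing disc G2, against 10.44, 10.38 and 10.46 in wing disc G1. All G2 arrays lay above all G1 arrays, and the change was 0.67 ± 0.12 (SE, n = 3 each, limma adjusted p = 0.00295). The other chitinase genes did not pass: their changes ran from -0.03 for Cht11 to 0.23 for Cht6. Cht2 was nearly identical on all disc arrays, at 11.11, 11.09 and 11.09 in wing disc G2 and 11.10, 11.11 and 11.12 in wing disc G1.

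obst-A (CG17052), which encodes a chitin-binding scaffold of the larval cuticle, had 12.13, 12.23 and 12.08 in wing disc G2, against 11.68, 11.82 and 11.74 in wing disc G1. The groups did not overlap, but the change was small, at 0.40 ± 0.11 (SE, limma adjusted p = 0.0345). Leaving out any 1 of the 6 disc arrays raised the adjusted p to between 0.0531 and 0.112. The call was also lost with no filter (0.0613), with no filter and the replicate block (0.0504), and with cyclic loess (0.0583).

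The lower genes were both structural protein genes. TwdlE (CG14534) had 7.46, 8.03 and 7.23 in wing disc G2, against 7.97, 8.47 and 8.25 in wing disc G1, and the groups overlapped through the G2 array of replicate 3. Its change was -0.65 ± 0.19 (SE, limma adjusted p = 0.0494), and it was lost without any 1 S2 array (0.0525 to 0.0643), or without disc G1 replicate 3 or 4 or disc G2 replicate 2 or 4 (0.124 to 0.175). It was lost too with array medians subtracted, cyclic loess or no filter (0.0575 to 0.0626), and with only the disc arrays fitted (0.112). Cpr31A (CG33302) had 5.62, 5.96 and 5.74 in wing disc G2, against 6.08, 6.48 and 6.57 in wing disc G1, with no overlap. The change of Cpr31A was -0.60 ± 0.17 (SE, limma adjusted p = 0.0405), lost without S2 G1 or S2 G2 replicate 5 (0.0525 and 0.0586), disc G1 replicate 3 or 4, or disc G2 replicate 2 or 4 (0.109 to 0.145), with no filter (0.053) and with only the disc arrays fitted (0.0514). The count of higher members was 3 without disc G1 replicate 2, disc G2 replicate 2 or disc G2 replicate 4, and 4 without disc G1 replicate 4. The calls of TwdlT, Cpr65Ec and Cht10 held without any single array.

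Arrays of the same replicate number deviated together, so a fit with the number as a block was also made. It called 8 members higher (against 12% of all genes) and 3 lower (against 7.86%). All members called without the block were called with it too. The limma adjusted p with the block was 0.00034 for Cpr78E, 0.0023 for Cpr35B and 0.0036 for Cpr31A. For TwdlE, Cpr49Ac and obst-A it was 0.0143, 0.0217 and 0.0245. The block fit was not repeated without single arrays. A higher member added by that fit was Cpr64Aa (CG15006). It had 9.28, 10.45 and 9.20 in wing disc G2, against 7.64, 9.19 and 7.54 in wing disc G1. The groups nearly met, since G1 of replicate 3 lay just under the lowest G2 array, and replicate 3 was high in both fractions. The change of Cpr64Aa was 1.52 ± 0.45 (SE, limma adjusted p = 0.053), and ± 0.18 with the block (adjusted p = 0.00139). Cpr49Ah (CG8515) had 7.49, 8.61 and 7.03 in wing disc G2, against 8.28, 9.05 and 7.48 in wing disc G1, and it overlapped widely although G2 was lower within each number. Its change of -0.56 had an adjusted p of 0.449 without the block and 0.0392 with it (limma).

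**Figure D2:**
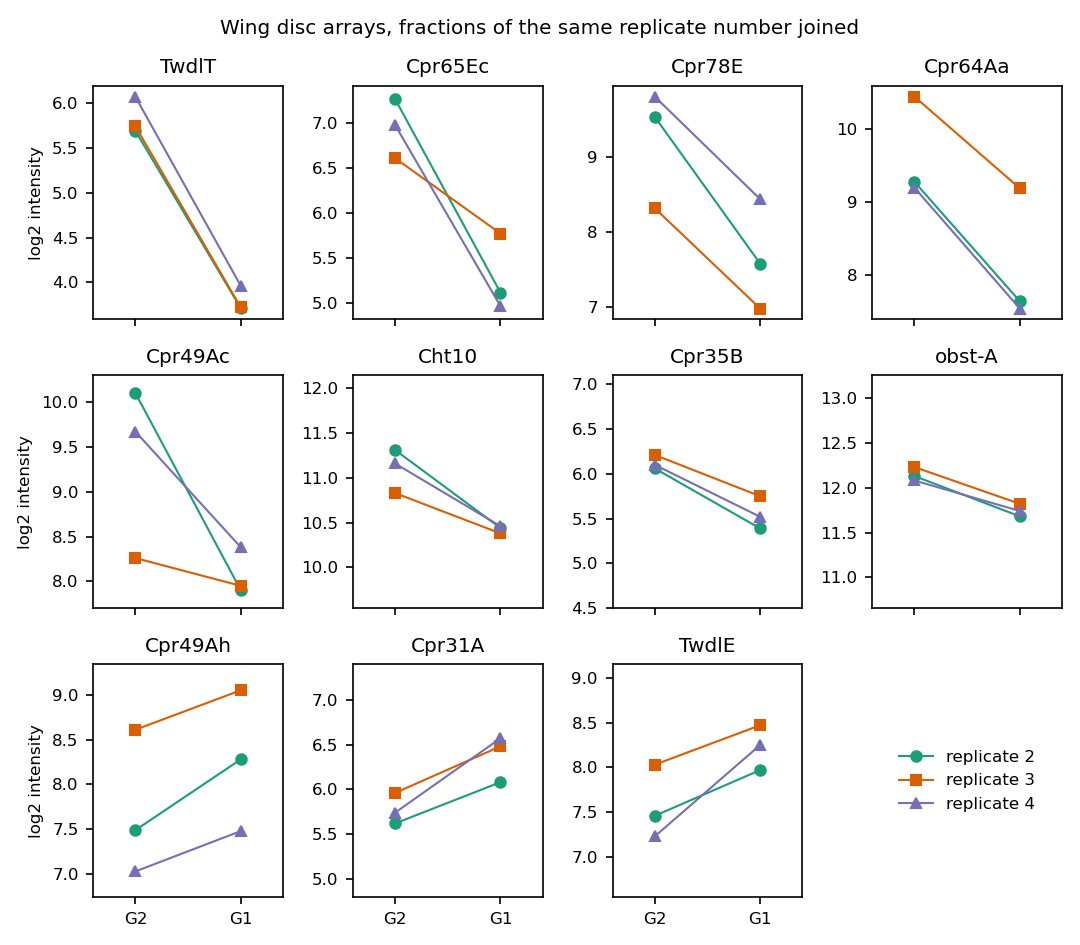
Log2 intensity in wing disc G2 (left of each panel) and wing disc G1 (right) for the 11 members that passed with or without the replicate block, with a line joining the 2 fractions of a replicate number. Each panel has its own axis range. Lines of Cpr78E, Cpr64Aa, Cpr49Ac and Cpr49Ah start far apart, with replicate 3 farthest from the others in wing disc G2. Those of TwdlT and obst-A nearly coincide.

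Replicate 3 of the disc stood apart in several Cpr genes, a pattern picked out after the values were seen and given without a test. For each of the 35 members with a disc mean of at least 5 in both fractions together, the fractions were averaged within a number. The range of the 3 averages was over 1 log2 unit in 4 members (11.4%), against 47 of 6381 genes (0.737%), and its median was 0.27, against 0.18 for all genes. Cpr49Ah had the widest range (1.58), followed by Cpr78E (1.47), Cpr64Aa (1.45) and Cpr51A (1.37). These genes did not move one way. Relative to the mean of the other replicates, replicate 3 was higher by 1.41 in Cpr64Aa, 1.26 in Cpr49Ah and 1.22 in Cpr51A, and it differed by -1.19 in Cpr78E and by -0.91 in Cpr49Ac.

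Cpr51A (CG10112) shows the pattern without a phase change, with 8.60, 10.02 and 8.87 in wing disc G2, against 8.38, 9.70 and 8.73 in wing disc G1. Replicate 3 was the highest array in both fractions. Of the 13 tested genes in a list of epidermal differentiation and the ecdysone response, replicate 3 was the lowest in both fractions for 6 (Eip78C, Hr39, ImpE1, ImpE2, ImpE3 and ImpL1) and the highest in both for 2 (EcR and Kr-h1). Replicate 3 was the highest in both fractions for 12 of the 35 members (34.3%, against 29.8% of genes) and the lowest for 6 (17.1%, against 14.1%). The part of the replicate in the phase changes was not tested beyond the block and the fits without each array.

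**Figure D3:**
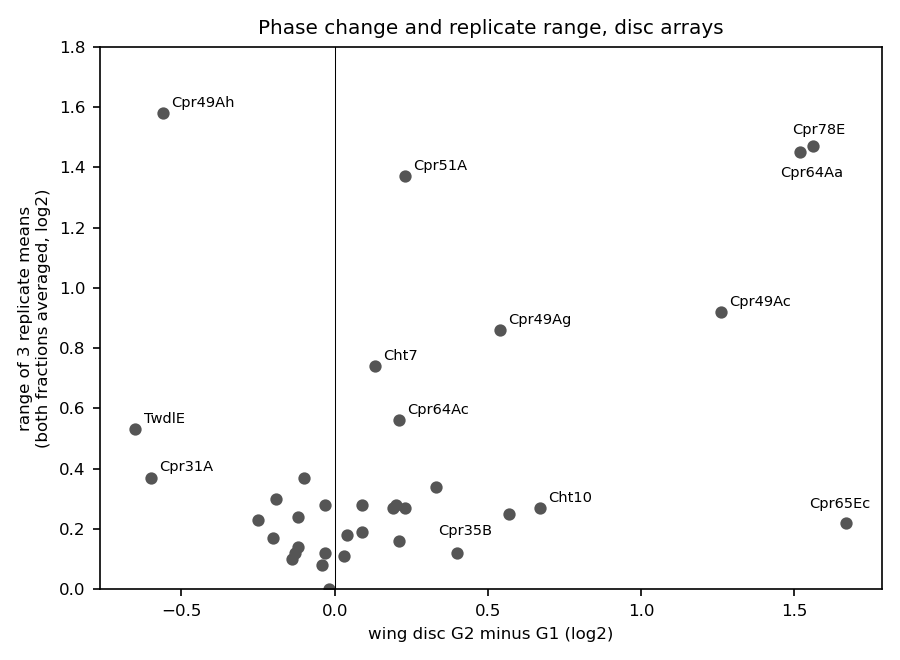
Range of the 3 replicate averages (vertical axis, log2) against the change between wing disc G2 and wing disc G1 (horizontal axis, log2) for the 35 members with a disc mean of at least 5. Cpr49Ah, Cpr78E, Cpr64Aa and Cpr51A lie above 1 on the vertical axis, and Cpr65Ec combines a change of 1.67 with a narrow range.

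Markers of disc cell types differed by fraction as well. Of all genes tested, 5.42% were higher and 5.64% lower in wing disc G2, or 12% and 7.86% with the block. Of 15 wing disc epithelium markers, 3 (ap, Dll and caup) were higher in wing disc G2 and 0 were lower, and the block called 6 higher. Their summed intensity was 8315 to 8851 in wing disc G2, against 6887 to 7982 in wing disc G1. Of 6 tested markers of adult muscle precursors, 5 were lower in wing disc G2, and the summed intensity of the list was 7864 to 10900 in wing disc G2, against 13600 to 16810 in wing disc G1. Of 10 tracheal genes, 3 (vvl, uif and verm) were higher and 0 lower, and the block called 6 higher and 1 lower. The sums were 9619 to 10810 in wing disc G2, against 7220 to 8017 in wing disc G1. The brightest genes of this list in the disc were pio, Gasp, verm and serp, which also stand in the lists of cuticle formation below. The sum therefore does not mark tracheal cells alone, and the defining tracheal gene btl was under 5 on all arrays. Of 6 tested genes listed for peripodial and squamous cells, 3 (odd, pnr and eyg) were higher. The list sums were 3446 to 3524 in wing disc G2, against 2496 to 2939 in wing disc G1. Since pnr and eyg also pattern the notum, these values do not mark peripodial cells alone. Of 14 haemocyte markers, 4 were lower, with sums of 4389 to 4702 in wing disc G2, against 8542 to 10500 in wing disc G1. In wing disc G1 SPARC was the brightest of the list (12.32, against 10.73 in wing disc G2), so it weighs heavily in the sum. The means of srp, NimC1 and Sr-CI were slightly higher in wing disc G2 (2.98, 5.21 and 5.06, against 2.87, 4.93 and 4.88). Those of the other listed markers were lower. The part of these cell types in the changes of the cuticle genes was not tested.

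In S2 cells, 0 of the 41 genes were higher in S2 G2 (against 6.75% of all genes) and 2 were lower (4.88%, against 3.85%) by limma, with 4 at an unadjusted p under 0.05. With the replicate block the counts were 0 and 3 (against 11.9% and 7.86%). Their median change was -0.06, and that of all genes was 0.03. The lower genes were the chitinase gene Cht2 and the cuticle protein gene Cpr50Cb.

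Cht2 (CG2054) had 5.76, 5.40 and 5.39 in S2 G2, against 6.51, 6.26 and 6.36 in S2 G1. The groups did not overlap, and the change was -0.86 ± 0.11 (SE, n = 3 each, limma adjusted p = 0.00093). This call held without any single array. Cpr50Cb (CG6305), higher in S2 cells than in the disc, had 5.39, 5.40 and 5.40 in S2 G2, against 5.82, 5.84 and 6.23 in S2 G1. Its groups did not overlap either, and its change was -0.57 ± 0.16 (SE, limma adjusted p = 0.0453). With the replicate block the adjusted p was 0.063. It was also lost without any 1 S2 array (0.0578 to 0.113), or without disc G1 replicate 2, disc G2 replicate 2 or disc G2 replicate 3 (0.0512 to 0.0589), and the count of lower genes was then 1, except without S2 G1 replicate 6, when it was 3. In all, 16 of 20 alternatives lost the Cpr50Cb call.

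In S2 cells the block added TwdlK and Cpr12A as lower in S2 G2. TwdlK (CG6460) had 4.75, 4.89 and 4.45 in S2 G2, against 5.36, 5.24 and 4.81 in S2 G1. The fractions overlapped, and the change of -0.44 had an adjusted p of 0.123 without the block and 0.0202 with it (limma). Cpr12A had 4.21, 4.11 and 4.30 in S2 G2, against 4.74, 4.60 and 4.39 in S2 G1, all under 5, with an adjusted p of 0.0529 without the block and 0.046 with it.

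The difference between the disc change and the S2 change was then tested for each gene. It was positive for 4 of the 41 genes (9.76%, against 2.29% of all genes) and negative for 0 (against 3.13%) by limma, with 11 at an unadjusted p under 0.05. TwdlT and Cpr65Ec were among them (limma adjusted p = 0.00068 and 0.0105 with no filter), but both were under 5 on all S2 arrays, and TwdlT on all wing disc G1 arrays too. Their S2 changes lie near the bottom of the range, and the size of these differences is not measured. The other genes were chitinase genes. Cht2 had a difference of 0.84 ± 0.15 (limma adjusted p = 0.00744), made up of the S2 change of -0.86 and a disc change of -0.02. Cht10 had one of 0.70 ± 0.17 (limma adjusted p = 0.0331), with a disc change of 0.67 and an S2 change of -0.02. Its levels were 5.38, 5.42 and 5.20 in S2 G2 and 5.27, 5.36 and 5.44 in S2 G1, which overlapped. The Cht10 difference did not pass with no filter (0.0509) or without any 1 array other than disc G2 replicate 3 (0.0511 to 0.085).

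With the replicate block, 7 differences were positive (against 5.81% of genes) and 1 was negative (against 5.98%). The block added Cpr78E (1.41, adjusted p = 0.00527, against 0.227 without it), Cpr35B (0.60, 0.0136 against 0.128), Cpr12A (0.58, 0.0458 against 0.0523) and Cpr31A (-0.54, 0.0351 against 0.255), and the Cht10 difference remained among the positive ones. These added members were under 5 on all S2 arrays, so their S2 changes lie near the floor and the size of the difference is not measured. For obst-A and Cpr49Ac, which passed in the disc, the difference passed in neither fit.

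**Figure D4:**
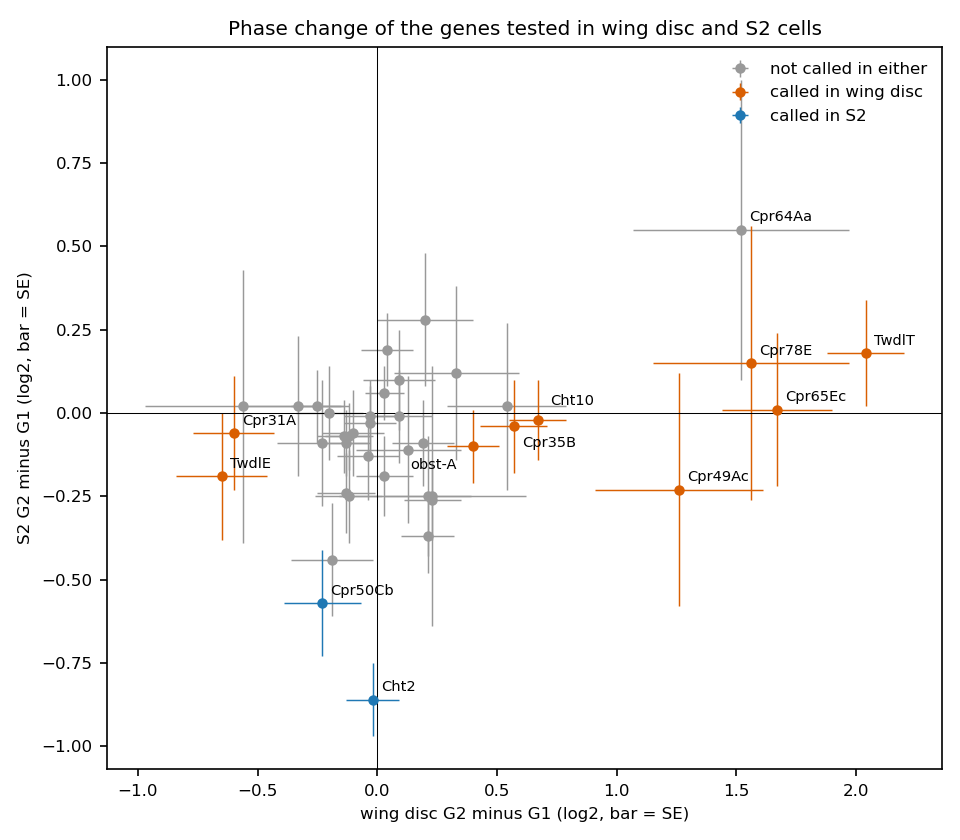
Change between G2 and G1 in the wing disc (horizontal axis) and in S2 cells (vertical axis), as log2 with SE bars, for the 41 genes tested. Genes called in the disc spread along the horizontal axis at S2 changes between -0.23 and 0.18, and Cht2 and Cpr50Cb lie below the rest at disc changes of -0.02 and -0.23.

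The disc and S2 cells were compared within each fraction. Over all 138 members with no filter, 45 were higher in wing disc G2 than in S2 G2 (32.6%, against 23.7% of all genes) and 1 was lower (0.725%, against 25.6%). In G1, 40 were higher in the disc (29%, against 24%) and 5 were lower (3.62%, against 25.2%). Among the 41 that passed the filter, 29 were higher and 2 lower in each fraction, where all genes gave 35.7% and 42.2% in G2 and 37.2% and 40.9% in G1. Of these, 19 passed through disc arrays alone and were thereby chosen for high disc levels, so the counts among the 41 are not support for a disc excess. Of the 21 that passed through both cell types, 12 were higher and 1 lower in G2, and 10 were higher and 1 lower in G1. These counts are no support for a disc excess either. Some of the 21 passed mainly through disc arrays, such as Cpr64Aa with 6 disc arrays and 1 S2 array at 5 or above. No share of all genes by this route was made.

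The obstructor genes obst-A and obst-B and the deacetylase gene Cda4 were bright in the disc and under 5 on average in S2 cells. obst-A averaged 12.15 ± 0.08 in wing disc G2 and 2.36 ± 0.20 in S2 G2 (SD, n = 3 each). The S2 level is at the floor, so the ratio is a bound: wing disc G2 was at least 142-fold above the level of 5, and wing disc G1 at least 107-fold. Cda4 (CG32499), a predicted chitin deacetylase gene, averaged 11.75 ± 0.23 in wing disc G2 and 3.49 ± 0.09 in S2 G2, at least 107-fold by the same bound, and at least 101-fold in G1. For obst-B (CG4778), a further chitin-binding protein gene, the averages were 10.39 ± 0.26 in wing disc G2 and 4.34 ± 0.53 in S2 G2, at least 41.9-fold, and at least 33.4-fold in G1.

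Among the chitinase genes, Cht2, Cht10 and Cht11 were measured above 5 in both cell types. Cht10 averaged 11.10 ± 0.24 in wing disc G2 and 5.33 ± 0.12 in S2 G2, a difference of 5.77 ± 0.12 (SE, limma adjusted p = 1.2e-12), and 5.07 in G1. The Cht2 difference was 5.58 ± 0.11 in G2 (limma adjusted p = 7.3e-13) and 4.74 in G1. Cht7 (CG1869) averaged 8.51 ± 0.41 in wing disc G2 and 2.85 ± 0.17 in S2 G2, at least 11.4-fold. Cht5 (CG9307), the orthologue of a moulting chitinase of other insects, averaged 8.13 ± 0.31 in wing disc G2 and 3.89 ± 0.39 in S2 G2, at least 8.73-fold. Cht6 was at least 5.13-fold higher in G2. Cht11 (CG3044) went the other way by a small margin, with 6.21, 5.88 and 6.06 in wing disc G2, against 6.39, 6.33 and 6.22 in S2 G2. Its difference was -0.26 ± 0.11 (limma adjusted p = 0.0396), lost with no filter (0.0733), with a trended prior (0.068), and without S2 G2 replicate 4 or 5, disc G1 replicate 4, or disc G2 replicate 3 or 4 (0.0516 to 0.165). In G1 the Cht11 difference was -0.25 (adjusted p = 0.0481), lost with no filter, with a trended prior, with only the G1 arrays fitted, and without S2 G1 replicate 4 or 5, any 1 S2 G2 array, disc G1 replicate 3 or 4, or disc G2 replicate 4 (0.0535 to 0.156).

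Several Cpr genes had disc levels well above the floor. Cpr12A (CG15757) averaged 9.46 ± 0.13 in wing disc G2 and 4.20 ± 0.09 in S2 G2, at least 22.0-fold. Cpr49Ac was at least 20.2-fold higher in G2 and at least 8.43-fold in G1. Cpr66D (CG32029) averaged 8.42 ± 0.17 in wing disc G2 and 3.65 ± 0.31 in S2 G2, and the bound was 10.7-fold in G2 and 12.3-fold in G1. TwdlE averaged 7.57 ± 0.41 in wing disc G2 and 2.73 ± 0.19 in S2 G2, at least 5.95-fold, and at least 9.37-fold in G1. TwdlT was low in S2 cells and in wing disc G1 alike. Besides Cht11, Cpr50Cb was the one tested member called higher in S2 cells, with 4.16, 4.20 and 3.79 in wing disc G2, against 5.39, 5.40 and 5.40 in S2 G2. It passed the filter through S2 arrays alone and its disc arrays were all under 5, so only a bound can be given: S2 was at least 1.32-fold above that level in G2 and at least 1.95-fold in G1.

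A further set of members sat close to 5 or at 1 level everywhere, and no difference was called between the cell types in either fraction. These included Cpr30F, at 5.70 ± 0.18 in wing disc G2, 5.80 ± 0.27 in wing disc G1, 5.68 ± 0.10 in S2 G2 and 5.74 ± 0.06 in S2 G1, and also Cpr64Ab, Cpr76Bd, TwdlO, TwdlP, Muc26B and obst-E. Lcp65Aa (CG7287), a larval cuticle protein gene, averaged 7.35 ± 0.16 in wing disc G2, 7.47 ± 0.11 in wing disc G1, 7.15 ± 0.10 in S2 G2 and 7.22 ± 0.11 in S2 G1. Only the G1 difference of Lcp65Aa passed (0.25 ± 0.10, limma adjusted p = 0.0453).

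Other genes of cuticle formation were followed through 5 lists. Chitin synthase, encoded by kkv, takes its precursor from the hexosamine pathway, whose entry enzymes are encoded by Gfat1 and Gfat2. Of 6 genes of chitin synthesis tested, 1 was higher in wing disc G2 and 0 were lower (against 5.42% and 5.64% of all genes). Their median change was 0.15, against 0.06 for all genes. Gfat1 had 11.84, 12.08 and 11.90 in wing disc G2, against 11.31, 11.50 and 11.40 in wing disc G1, with no overlap (0.53 ± 0.09, limma adjusted p = 0.00199). kkv averaged 10.20 ± 0.11 in wing disc G2, 9.91 ± 0.19 in wing disc G1, 3.76 ± 0.13 in S2 G2 and 3.81 ± 0.27 in S2 G1, and its disc phase change did not pass (0.29, adjusted p = 0.235). In S2 cells Gfat2 passed, at 10.89, 10.79 and 10.74 in S2 G2, against 10.17, 10.19 and 10.22 in S2 G1 (0.61 ± 0.08, limma adjusted p = 0.00121), and the block added Gfat1 (0.29, 0.0226 against 0.0586).

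Of 12 genes of chitin matrix assembly and deacetylation, 3 were higher in wing disc G2 and 0 were lower (against 5.42% and 5.64% of all genes), with a median of 0.16. The chitin deacetylase gene verm had 10.67, 10.49 and 10.59 in wing disc G2, against 9.91, 10.03 and 9.75 in wing disc G1 (0.69 ± 0.10, limma adjusted p = 0.00066). The verm gene also stands in the tracheal marker list, as do serp, Gasp and pio of these lists. Idgf4, a chitinase-like protein gene, had 10.41, 10.65 and 10.24 in wing disc G2, against 9.27, 9.99 and 9.19 in wing disc G1 (0.95 ± 0.19, adjusted p = 0.00672). The groups did not overlap for either gene. The chitin-protecting protein gene knk changed by 0.43 ± 0.11 (limma adjusted p = 0.032), which was lost with no filter (0.0529) and without any 1 disc G1 array or disc G2 replicate 2 (0.0594 to 0.119). The block added Gasp (0.44, 0.0176 against 0.119) and, lower, Hexo2 (-0.56, 0.0125 against 0.0971).

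The laccase gene stw, whose enzyme tans cuticle, was the 1 higher gene of 4 in the tanning list (against 5.42% of all genes). It had 8.57, 8.36 and 8.35 in wing disc G2, against 7.84, 7.74 and 7.53 in wing disc G1 (0.72 ± 0.11, limma adjusted p = 0.00159). None of 7 zona pellucida domain genes passed in the disc, with a median change of 0.42, and the block called 3 of them higher (mey, neo and pio), where it called 12% of all genes higher. None of 13 genes of epidermal differentiation and the ecdysone response passed, with a median of 0.33, and the block called 7 higher, grh, usp, br, ImpE1, ImpE2, ImpE3 and ImpL2, against the same 12% of all genes. Grainyhead, encoded by grh, is an activator of epidermal barrier genes. It had 10.31, 9.75 and 9.92 in wing disc G2, against 9.61, 9.39 and 9.06 in wing disc G1 (0.64 ± 0.19, limma adjusted p = 0.053, and 0.0316 with the block).

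**Figure D5:**
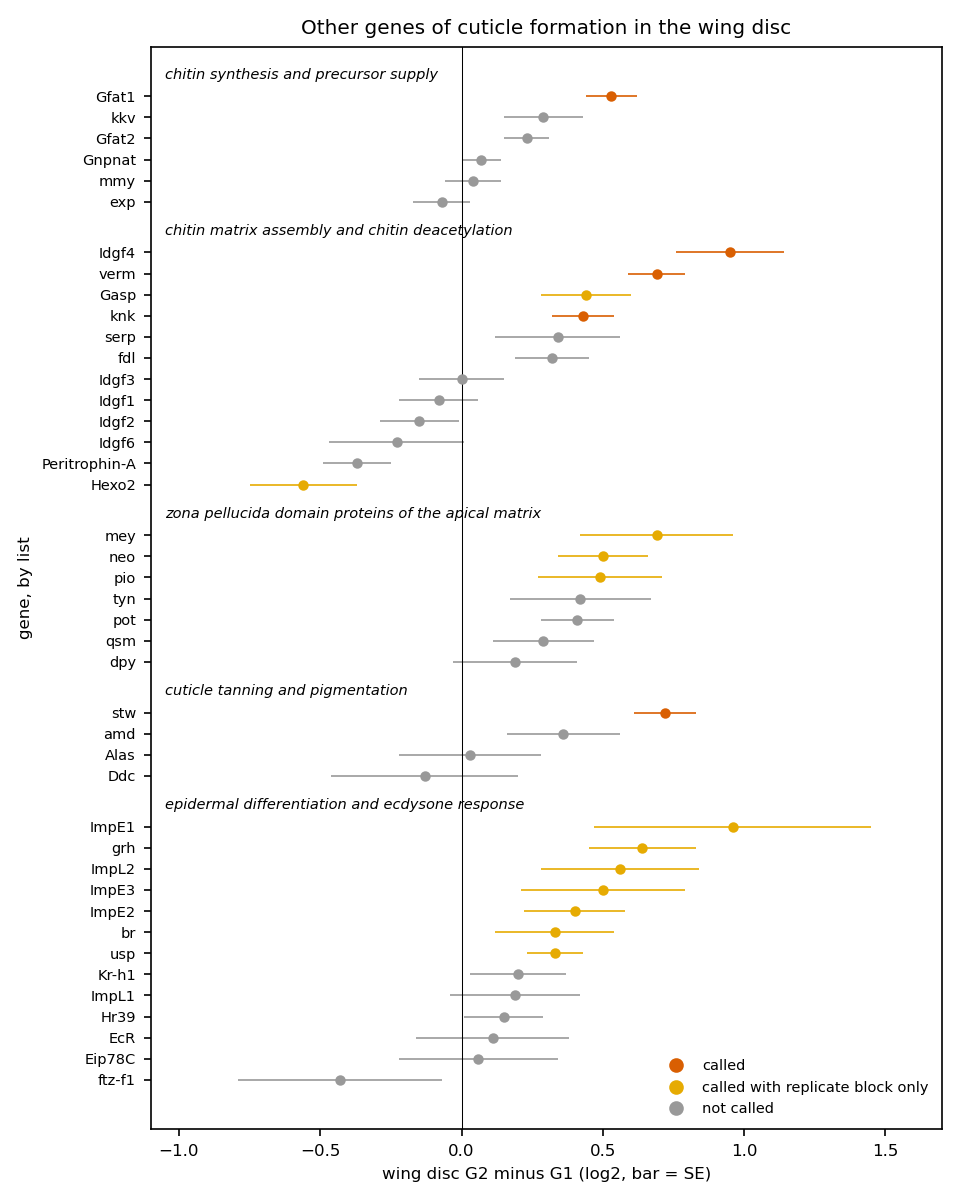
Change between wing disc G2 and wing disc G1 (log2, with SE bars) for the tested genes of the 5 lists of cuticle formation. Gfat1, Idgf4, verm, knk and stw were called, at 0.43 to 0.95, and all 7 zona pellucida domain genes lie to the right of 0.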

How the data were processed

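RNA of 12 sorted samples was amplified from 100 ng of total RNA (MessageAmp III) and labelled with biotin. The deposited table gives 1 linear intensity per probe set and array. The authors used RMA and R 2.15.2, per the submitters' processing notes, and which background correction and scaling RMA applied is not stated in the labels. Arrays give no counts, and their number limits the precision. Of 18952 probe sets, 183 controls were left out. By the 2016 platform annotation, 13646 of the rest named 1 gene, 402 named more than 1 and 4721 named none. The 138 members all matched the RefSeq gene table, with 0 changed symbols.

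From the deposited intensity, log2 was taken and probe sets of at least 5 on 3 or more arrays were kept (6937 genes by brightest probe set). limma 3.58.1 (R 4.3.3) was used to fit group means to the 12 arrays jointly, with lmFit, eBayes and 8 residual degrees of freedom. A call is a two-sided p under 0.05 after Benjamini-Hochberg adjustment across the 8580 probe sets. "At least" folds set the bright mean against the level of 5 where all arrays of the other group were below it. The method was tested on simulated data. Tables and plots used Python 3.11.15, pandas 2.3.3, numpy 2.4.6 and matplotlib 3.10.9.

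The replicate numbers come from the labels. Deviations of G2 and G1 arrays from their group means correlated at 0.308 to 0.518 in the 6 pairs with the same number, and at -0.499 to 0.007 in the 12 other pairs, so the numbers pair the samples and a fit with the number as a block within cell type was an alternative. Others were array medians subtracted, cyclic loess, no filter, a filter at 6, array weights, a trended prior, fitting only the arrays compared, leaving out each array, and, added after seeing the data, no filter with the block.

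Genes were named by rule: members that passed in a phase comparison or in the difference, the largest differences between disc and S2, the brightest of each family, the edge of the filter, and list genes that passed a phase comparison; others named were chosen after their values were seen. The members and the lists were chosen with earlier results of these data known.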

Additional observations from a re-analysis of the deposited data

Results flagged for a closer look

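In 6 genes the change between G2 and G1 differed between the wing disc and S2 cells by a limma test of the difference itself (disc change minus S2 change, log2, adjusted p under 0.05). Among the cuticle and chitin families these were TwdlT at 1.86, Cpr65Ec at 1.66, Cht2 at 0.84 and Cht10 at 0.70. TwdlT and Cpr65Ec were under 5 on all S2 arrays, and TwdlT on all wing disc G1 arrays too. The size of their differences is therefore not measured. The Cht10 call was lost under 12 of 20 alternatives. Among the other genes of cuticle formation they were Idgf4 at 1.07 ± 0.27 (adjusted p = 0.0415) and verm at 0.74 ± 0.14 (adjusted p = 0.00956). Idgf4 averaged 5.67 ± 0.15 in S2 G2 and 5.78 ± 0.10 in S2 G1, and verm 5.00 ± 0.09 in S2 G2 and 5.06 ± 0.10 in S2 G1 (SD, n = 3 each), so the S2 side of both lies near the level of 5. For Cht2 the S2 side is the one that moved, and for the other 5 it is the disc side.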

How the results depend on the processing

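Of 41 named results, 30 kept their call under every alternative run, 11 lost it under at least 1, and 0 changed direction. The 41 include differences between disc and S2 that were named because they were among the largest. Of the member calls between the disc fractions, those of TwdlT, Cpr65Ec and Cht10 were kept throughout. The calls of Cpr78E, Cpr49Ac, Cpr35B, obst-A, TwdlE and Cpr31A were lost under at least 1 alternative. The counts of calls moved as follows, given here without shares of all genes and so not read as a result about the members. Lower in wing disc G2 than in wing disc G1 were 2 members, 1 with array medians subtracted or cyclic loess, 0 with no filter or with only the disc arrays fitted, and 4 with array weights. Lower in S2 G2 were 2, 1 with array medians subtracted or a trended prior, and 4 with array weights. The positive differences between the disc and S2 changes were 4, 7 with the replicate block and 8 with array weights, and the negative ones 0, and 1 with the block. Higher in wing disc G2 than in S2 G2 were 29, and 45 with no filter. Lower there were 2, and 1 with no filter, a filter at 6 or a trended prior. Lower in wing disc G1 than in S2 G1 were 2, 5 with no filter, and 1 with a filter at 6, a trended prior or only the G1 arrays fitted.

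Leaving out each array in turn, between 3 and 7 members were higher and 0 to 2 lower in wing disc G2, 0 higher and 1 to 3 lower in S2 G2, 3 to 6 differences were positive and 0 negative, and 25 to 29 members were higher and 1 to 2 lower in the disc in each fraction. Among the 138 members, the block changed no call of a phase change or of its difference beyond those given in the report. Among genes of the lists it added others, such as the differences of knk (adjusted p = 0.0159 by limma, against 0.0705 without it) and mey (0.0193 against 0.326). Disc and S2 share only replicate number 4, so no paired analysis was possible between them. With array medians subtracted, the median difference of all probe sets between disc and S2 was -0.14 in G2 and -0.09 in G1, against -0.02 and 0.01 as deposited. Members under 5 on all arrays lie near the floor of the arrays, where a fold is not measured. The cause of these moves was not tested.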

Other observations

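The Idgf genes, which encode chitinase-like proteins without chitinase activity, were split between the cell types. Idgf1, Idgf2, Idgf3 and Idgf6 averaged 5.36, 4.44, 5.48 and 7.19 in wing disc G2, against 11.31, 12.19, 12.29 and 12.42 in S2 G2, and Idgf4 had the opposite order at 10.43 in wing disc G2, against 5.67 in S2 G2. All 7 zona pellucida domain genes tested were higher in the disc in both fractions, with median differences of 7.06 in G2 and 6.30 in G1. Among them, pio averaged 11.57 ± 0.36 in wing disc G2 and 3.68 ± 0.11 in S2 G2 (SD, n = 3 each).

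Some probe sets bear on the families without being counted among the 138 values. A probe set shared by Cpr67Fa2 and Cpr67Fa1 had 5.83, 6.61 and 5.70 in wing disc G2, against 5.49, 5.50 and 5.33 in wing disc G1. It averaged 4.91 ± 0.21 in S2 G2 and was higher in wing disc G2 by 1.13 (limma adjusted p = 0.00037), while the probe set of Cpr67Fa1 alone was under 5 in both disc fractions. A probe set shared by Obp57d and Cpr57A averaged 5.72 ± 0.13 in wing disc G2 and 4.16 ± 0.17 in S2 G2. For 6 members a second probe set exists. Those of Cht6 had the same direction between disc and S2, but a dimmer probe set of obst-E averaged 5.10 ± 0.42 in wing disc G2 and 3.67 ± 0.20 in S2 G2, a difference its brighter one did not show (5.11 ± 0.16 in wing disc G2 and 4.98 ± 0.17 in S2 G2). The dimmer probe set of Lcp65Aa averaged 4.36 ± 0.04 in wing disc G2 and 4.37 ± 0.04 in S2 G2.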
